A study of Homo sapiens with 8 samples.

Results

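The 42 genes described here are the classical genes of amino acid stress and of the unfolded protein response. They were taken by their symbols in the platform's list of probes, out of 33616 genes with a symbol, and each was read from its feature with the highest mean level. All 42 passed the filter on low values and were among the 23854 genes tested. They form 2 groups of 21. The first, called the ATF4 group below, holds ATF4, its partner factors and its targets in amino acid synthesis, amino acid transport and feedback. The second, called the endoplasmic reticulum group, holds the stress sensors, chaperones, disulfide isomerases and degradation factors of the unfolded protein response.

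Cells that run short of an amino acid, or whose endoplasmic reticulum fills with unfolded protein, phosphorylate the initiation factor eIF2, which lowers general translation while ATF4 protein is made from its mRNA. ATF4 then turns on genes that import and synthesise amino acids, including the serine pathway that feeds one-carbon units to nucleotide synthesis. The sensors ERN1 (IRE1) and ATF6 act beside it: ERN1 splices the XBP1 mRNA and ATF6 is cleaved, and both products turn on chaperone genes. ATF4 and ATF6 are controlled largely at the level of protein and XBP1 by splicing, so the mRNA levels measured here do not report the activity of the factors themselves.

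PC-3 is an established human prostate cancer cell line derived from a bone metastasis. The 4 groups, each of 2 arrays from independent experiments per the labels (letters A and B), were untreated control cells, cells given calcitriol at 10 nM, cells given TGF-β1 at 5 ng/mL, and cells given both agents together, called the combination. Calcitriol is the active hormone made from vitamin D, and the second agent is a secreted cytokine. Treatment lasted 24 h, all groups share the cell line and its serum-containing medium, and the labels give neither a vehicle nor an incubation time for the control.

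Values are log2 levels, so a difference of 1 is a doubling, and levels of different genes are not set against each other because each has its own probes. Both agents acted on their usual targets. CYP24A1, the vitamin D degrading enzyme, had a mean level of 5.49 in control and 9.95 with calcitriol (adjusted p = 0.0247), and TGFBI, a TGF-β target, 7.15 and 10.43 with TGF-β1 (adjusted p = 0.000464). Correlations between arrays were 0.988 to 0.991 within groups and 0.977 to 0.990 between groups. All 5 epithelial and PC-3 markers (KRT8, KRT18, EPCAM, CDH1, VIM) lay above background on all arrays, their levels summing to 52.2 on both control arrays and to between 51.6 and 51.7 in the combination. The prostate luminal genes KLK3, KLK2 and TMPRSS2 also lay above background on all 8 arrays, and 2 of 5 measured fibroblast genes, 3 of 6 leukocyte genes and 2 of 4 endothelial genes did so too. LYZ of the leukocyte list and KDR of the endothelial list were at background throughout. The leukocyte list summed to between 32.9 and 34.5 in control and between 32.3 and 32.5 in the combination. That sum includes LYZ and also PTPRC, which was above background on 1 of 8 arrays. The prostate luminal sums were 19.2 to 19.4 in control and 18.9 to 19.0 in the combination. The fibroblast sums (30.4 to 30.5 and 29.6 to 31.3) and the endothelial sums (19.3 to 20.8 and 19.8 to 19.9) overlapped between these groups. In whole cultures, fewer cells expressing a gene and less RNA of it per cell cannot be told apart.

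The gap between the arrays' own positive and negative control features was 7.03 ± 0.015 (SD, n = 2) for control cells. It was 6.98 ± 0.064 with calcitriol, 6.93 ± 0.025 with TGF-β1 and 6.74 ± 0.051 in the combination. This gap was thus smallest on the combination arrays, and its part in the lower levels described below was not tested. Genes shifted downward in general in the combination: the median change from control was -0.06 over all genes tested and -0.12 over the 14793 protein-coding genes. It was also -0.12 over the 4589 protein-coding genes with a mean level above 8.

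The promoters of 4 genes are shown, namely the members that fell and a textbook target of each pathway. The CCAAT boxes marked in the members that fell do not tell these pathways apart. Each is the 250 bases upstream of a RefSeq transcription start, on the gene's own strand, in build GRCh38.p14. PSAT1 (chr9:78296875-78297124, plus strand) and MTHFD2 (chr2:74198365-74198614, plus strand) are the members that fell, and capitals mark CCAAT boxes in them. ASNS (chr7:97872409-97872658, minus strand) is the textbook ATF4 target, and capitals mark the ATF4 composite element. HSPA5 (chr9:125241344-125241593, minus strand) is the textbook unfolded protein response target, and capitals mark the endoplasmic reticulum stress element.
PSAT1: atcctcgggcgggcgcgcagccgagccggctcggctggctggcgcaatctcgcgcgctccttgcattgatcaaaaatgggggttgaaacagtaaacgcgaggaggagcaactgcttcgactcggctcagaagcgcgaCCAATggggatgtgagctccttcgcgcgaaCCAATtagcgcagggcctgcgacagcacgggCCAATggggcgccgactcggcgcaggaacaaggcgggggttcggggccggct
MTHFD2: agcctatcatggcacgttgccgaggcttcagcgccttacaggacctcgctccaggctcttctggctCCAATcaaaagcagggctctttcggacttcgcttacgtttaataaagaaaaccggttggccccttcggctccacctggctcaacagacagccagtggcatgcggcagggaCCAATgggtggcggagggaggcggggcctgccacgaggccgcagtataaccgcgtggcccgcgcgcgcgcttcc
ASNS: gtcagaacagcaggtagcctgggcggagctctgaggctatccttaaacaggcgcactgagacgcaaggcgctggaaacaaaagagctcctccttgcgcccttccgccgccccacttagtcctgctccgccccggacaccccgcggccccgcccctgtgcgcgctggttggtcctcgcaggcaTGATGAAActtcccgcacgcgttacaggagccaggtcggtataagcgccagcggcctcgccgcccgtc
HSPA5: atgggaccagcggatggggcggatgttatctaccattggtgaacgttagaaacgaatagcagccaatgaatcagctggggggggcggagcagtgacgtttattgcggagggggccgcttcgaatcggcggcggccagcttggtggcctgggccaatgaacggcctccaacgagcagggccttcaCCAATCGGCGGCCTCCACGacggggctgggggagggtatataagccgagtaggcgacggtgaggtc

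In these windows the ATF4 composite element (TGATGNAA, either strand) was found in 4 of 18 ATF4 group genes with a window, namely ASNS, CEBPG, CHAC1 and SLC1A5, and in 1 of 20 of the endoplasmic reticulum group (HERPUD1). It stood in 3.89% of the 27305 genes of the table. The ASNS copy begins 68 bases upstream of the start. The endoplasmic reticulum stress element (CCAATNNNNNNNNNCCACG, either strand) was found in 7 of 20 genes of the endoplasmic reticulum group (CALR, CANX, CRELD2, HSP90B1, HSPA5, PDIA6 and XBP1), in 0 of 18 of the ATF4 group and in 0.092% of all genes. The short XBP1 and ATF6 element (TGACGTGG) was found in ALDH18A1 and HYOU1, and in 0.78% of all genes. The CCAAT box alone was searched after the sequences had been seen and is contained in the stress element. It stood in 11 of 18 ATF4 group genes, 18 of 20 endoplasmic reticulum group genes and 37.0% of all genes. A gene was counted where any of its windows matched. PSAT1 holds 3 copies and MTHFD2 holds 2, and neither window holds TGATGNAA. A match describes letters in a window and is not a measured binding site.

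In the combination, 2 of the 42 genes fell and 0 rose against control at an adjusted p under 0.05 over all genes (limma). Both, PSAT1 and MTHFD2, are enzymes of serine and one-carbon metabolism. Of all genes tested, 1.15% passed this test as lower and 1.12% as higher. In the ATF4 group 17 of 21 genes had a change below 0, with a median of -0.31, while in the endoplasmic reticulum group 10 of 21 did, with a median of 0.02. Both combination arrays lay below both control arrays for 15 ATF4 group genes and above them for 2, against 8 below and 8 above in the endoplasmic reticulum group. Over all genes these shares were 33.7% below and 20.6% above, over protein-coding genes 43.6% and 14.2%, and over protein-coding genes with a mean level above 8 they were 54.4% and 17.1%. A change below 0 was found for 58.6% of all genes, 69.1% of protein-coding genes and 70.8% of those above 8, so most genes of any kind were on that side. Of the members, 11 in the ATF4 group and 14 in the endoplasmic reticulum group had a mean level above 8. Relative to the protein-coding median, the ATF4 group stood lower and the endoplasmic reticulum group higher. When the arrays were rescaled by cyclic loess so that the protein-coding median was 0.00, the medians were -0.20 and 0.11. Without control replicate B the endoplasmic reticulum median was -0.06, so its sign is not settled.

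**Figure D1:**
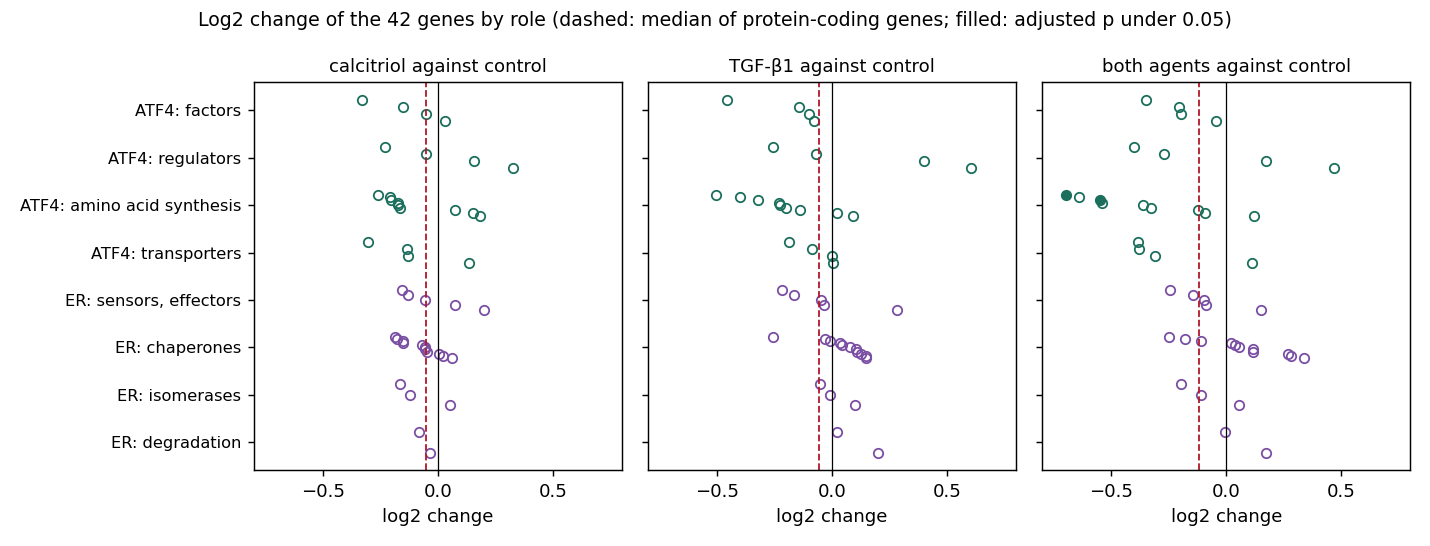
Log2 change of each of the 42 genes (horizontal axis) by role (rows), in 1 panel for each treatment against control. Each circle is 1 gene, filled where the adjusted p is under 0.05, and the dashed line is the median of protein-coding genes. The 2 filled circles, both in the combination panel, are PSAT1 at -0.70 and MTHFD2 at -0.55 among the amino acid synthesis genes.

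The 4 largest falls among the 42 genes were all in serine and one-carbon enzymes. PHGDH, PSAT1 and PSPH make serine from a glycolytic intermediate in that order, SHMT2 passes its carbon to folate in mitochondria, and MTHFD2 oxidises the folate product. For all 5 enzymes both combination arrays lay below both control arrays, as they did for 33.7% of all genes and 54.4% of protein-coding genes with a mean level above 8.

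PSAT1, the phosphoserine aminotransferase, read 8.82 on both control arrays (A and B), 8.60 and 8.63 with calcitriol, 8.51 and 8.33 with TGF-β1, and 8.04 and 8.20 in the combination. The groups did not overlap, and their order ran from control through calcitriol and TGF-β1 to the combination. The combination differed from control by -0.70 ± 0.11 (SE, n = 2 per group; 95% interval -0.95 to -0.44), which is 1.62-fold lower, with an adjusted p of 0.0291 in limma. Against control, calcitriol alone gave -0.21 (adjusted p = 0.723) and TGF-β1 alone -0.40 (adjusted p = 0.204), neither of which passed the test.

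MTHFD2, the mitochondrial methylenetetrahydrofolate dehydrogenase, read 9.87 and 9.99 in control, 9.76 and 9.75 with calcitriol, 9.64 and 9.57 with TGF-β1, and 9.43 and 9.33 in the combination. It had the same order of groups, again without overlap. Its change in the combination was -0.55 ± 0.10 (95% interval -0.78 to -0.31; adjusted p = 0.0424, limma), or 1.46-fold lower. The single agents gave -0.17 (adjusted p = 0.740) and -0.32 (adjusted p = 0.261). The calls of both genes rest on all the arrays: leaving out any 1 of the 8 (A or B of any group) raised the adjusted p above the threshold, to between 0.0543 and 0.140 for PSAT1 and between 0.0694 and 0.163 for MTHFD2, while the changes stayed between -0.78 and -0.62 and between -0.61 and -0.49. Only PSAT1 kept its call after cyclic loess (-0.58, adjusted p = 0.0348; MTHFD2 -0.43, adjusted p = 0.0637).

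PHGDH, the first enzyme of serine synthesis, read 8.49 and 8.28 in control, 8.12 and 8.14 with calcitriol, 7.78 and 7.98 with TGF-β1, and 7.52 and 7.97 in the combination. Every treated array lay below both controls, but the combination arrays differed from each other by more than the TGF-β1 arrays did and overlapped them. Its combination change of -0.64 ± 0.16 did not pass (adjusted p = 0.0811). A second feature for PHGDH, above background on 2 of 8 arrays, went the other way, at 0.48 in the combination. Averaging both features moved the PHGDH change to -0.0781 in the combination (adjusted p = 0.833), 0.24 with TGF-β1 (adjusted p = 0.662) and 0.20 with calcitriol (adjusted p = 0.840), so its values rest on the choice of feature.

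SHMT2, the mitochondrial serine hydroxymethyltransferase, read 9.94 and 10.18 in control, 9.84 and 9.93 with calcitriol, 9.84 and 9.82 with TGF-β1, and 9.50 and 9.54 in the combination. The combination arrays were the lowest of the 8, with a change of -0.54 ± 0.11 that fell just short of the threshold (adjusted p = 0.0533). PSPH, the last enzyme of serine synthesis, was not below control with either single agent. It read 7.64 and 7.75 in control, 7.81 and 7.74 with calcitriol, 7.74 and 7.70 with TGF-β1, and 7.62 and 7.52 in the combination, where the change was -0.13 ± 0.10 (adjusted p = 0.481).

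**Figure D2:**
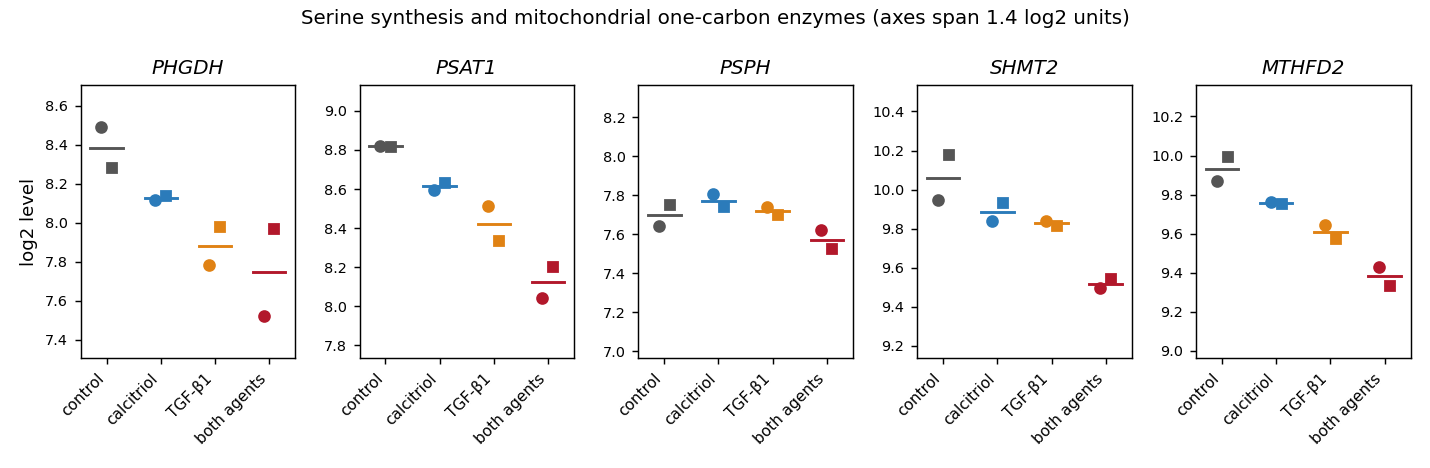
Log2 level (vertical axis, every panel spanning 1.4 log2 units) of the 5 serine and one-carbon enzymes on each array, by group. Circles are replicate A, squares replicate B and bars the group mean of 2. The combination has the lowest mean in all 5 panels, and PSPH alone is not lower with the single agents.

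Of the other 4 enzymes of amino acid synthesis, 0 passed the test. ASNS, which makes asparagine and is a standard ATF4 reporter gene, read 8.71 and 8.46 in control, 8.71 and 8.77 with calcitriol, 8.54 and 8.36 with TGF-β1, and 8.54 and 8.46 in the combination. Every treated group overlapped control, and the combination change was -0.09 ± 0.12 (95% interval from -0.37 to 0.19). The proline enzymes ALDH18A1 and PYCR1 gave -0.36 (adjusted p = 0.108) and -0.33 (adjusted p = 0.244), with both combination arrays below control for each. CTH, which makes cysteine from cystathionine, read 5.75 and 5.81 in control, 6.04 and 5.89 with calcitriol, 5.88 and 5.86 with TGF-β1, and 5.78 and 6.02 in the combination. CTH was among the 4 genes of the ATF4 group with a combination change above 0, at 0.12 (adjusted p = 0.568).

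ATF4 itself read 8.95 and 9.04 in control, 8.80 and 8.89 with calcitriol, 8.85 on both TGF-β1 arrays, and 8.60 and 8.69 in the combination. Each treated group lay below control without overlap and the combination was lowest. Its change there was -0.35 ± 0.10 (95% interval -0.58 to -0.12; adjusted p = 0.0982), which did not pass. DDIT3, the stress factor CHOP, showed another order. It read 6.06 and 5.94 in control, 5.84 and 5.51 with calcitriol, 5.51 and 5.58 with TGF-β1, and 5.67 and 5.91 in the combination. All treated arrays lay below both controls, and the combination arrays lay above the TGF-β1 arrays. The combination change was -0.21 ± 0.14 (adjusted p = 0.408), and the interaction, 0 where the log2 effects of the agents add up, was 0.58 ± 0.20 (adjusted p = 0.954). The partner factors CEBPG and CEBPB gave -0.20 (adjusted p = 0.261) and -0.05 (adjusted p = 0.830) in the combination.

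The feedback and effector genes did not move as 1 group. TRIB3, a pseudokinase induced by ATF4 and CHOP that restrains ATF4, read 6.96 and 7.09 in control, 6.89 and 7.05 with calcitriol, 6.98 and 6.93 with TGF-β1, and 6.72 and 6.79 in the combination (change -0.27 ± 0.11, adjusted p = 0.180). CHAC1, which degrades glutathione, read 6.58 and 6.79 in control, 6.44 and 6.46 with calcitriol, 6.39 and 6.46 with TGF-β1, and 6.01 and 6.56 in the combination (change -0.40 ± 0.18, adjusted p = 0.216). For both genes the combination arrays lay below control, and the CHAC1 combination arrays were far apart.

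SESN2, a leucine sensor that restrains mTORC1, read 6.39 and 6.31 in control, 6.59 and 6.42 with calcitriol, 6.53 and 6.97 with TGF-β1, and 6.51 and 6.54 in the combination. Every treated array was above both controls, and TGF-β1 array B stood highest. Its change was 0.40 ± 0.15 with TGF-β1 (adjusted p = 0.344) and 0.17 ± 0.15 in the combination (adjusted p = 0.523). VLDLR, a lipoprotein receptor, read 4.46 and 4.63 in control, 4.93 and 4.81 with calcitriol, 5.21 and 5.09 with TGF-β1, and 4.78 and 5.24 in the combination. Its treated arrays were all above control, but neither control array was above background, so the control value is only a bound and no fold is given. The adjusted p was 0.190 with TGF-β1 and 0.141 in the combination.

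Among the 4 amino acid transporters 0 passed the test, and 3 had both combination arrays below both controls, beside the same 33.7% of all genes and 54.4% of protein-coding genes above 8. SLC7A5 (LAT1), the importer of leucine and other large neutral amino acids, had a level of 9.38 ± 0.06 (SD, n = 2) in control, 9.08 ± 0.11 with calcitriol and 9.38 ± 0.15 with TGF-β1. The calcitriol and combination arrays all lay below control, and the TGF-β1 arrays overlapped it. The changes were -0.30 ± 0.12 with calcitriol (adjusted p = 0.664), 0.00 ± 0.12 with TGF-β1, and -0.38 ± 0.12 in the combination (adjusted p = 0.123). SLC1A5, a glutamine transporter, gave -0.38 (adjusted p = 0.135) and SLC7A1, which carries arginine, -0.31 (adjusted p = 0.164) in the combination. SLC38A2, a sodium-coupled neutral amino acid transporter, gave 0.11 (adjusted p = 0.627).

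**Figure D3:**
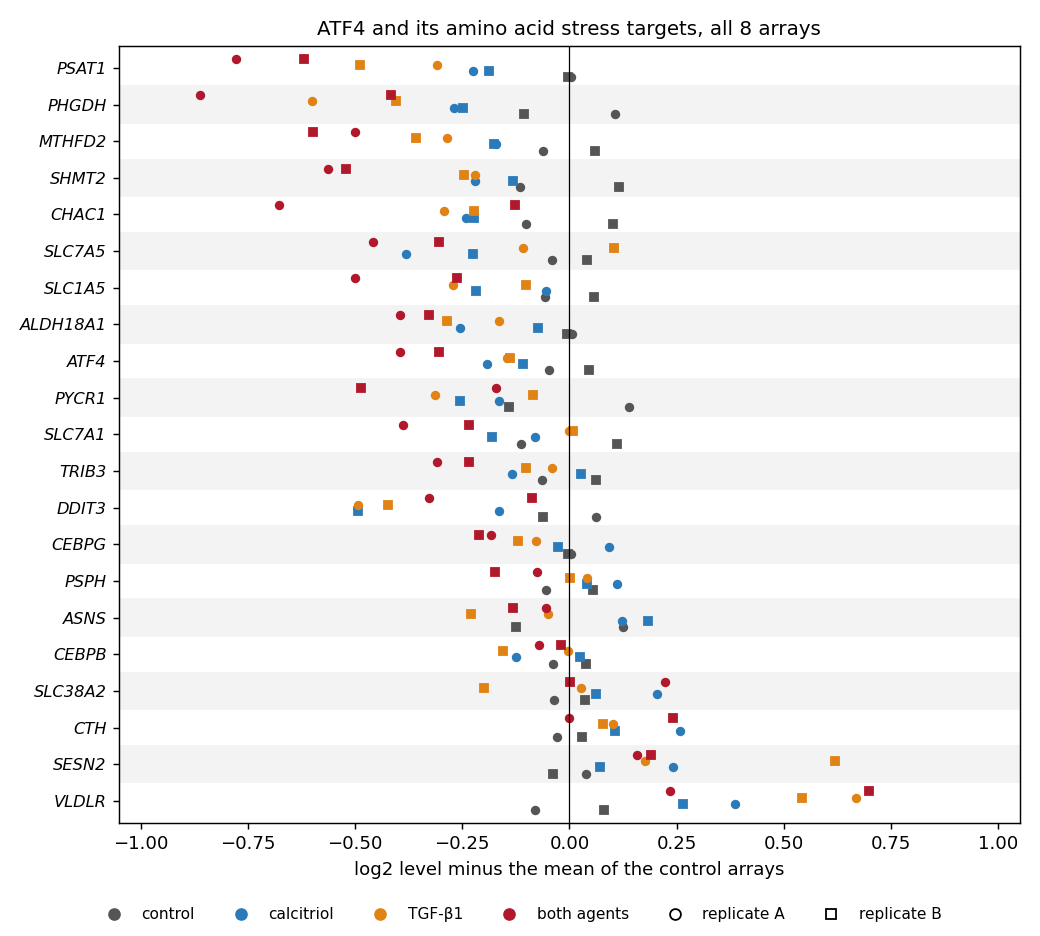
Log2 level minus the mean of the control arrays (horizontal axis) for the 21 ATF4 group genes (rows, ordered by the combination change) on all 8 arrays. Colour is the group, circles replicate A and squares replicate B. The points furthest left are those of PHGDH, PSAT1 and CHAC1 on combination array A, and all treated points of SESN2 and VLDLR lie to the right of 0.

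None of the 21 endoplasmic reticulum group genes passed the test in any of the 6 comparisons (limma). In the combination, 2 of them, MANF and DNAJB11, had an unadjusted p under 0.05. So did 11 of the 21 genes of the ATF4 group. The count was 5686 among all 23854 genes tested. It was 1446 among the 4589 protein-coding genes with a mean level above 8. The combination changes of the group ran from -0.25 to 0.34. In the ATF4 group they ran from -0.70 to 0.17 without VLDLR, whose control level is only a bound.

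The sensors and their effectors were close to control. XBP1 read 8.33 and 8.01 in control, 8.44 and 8.31 with calcitriol, 8.51 and 8.40 with TGF-β1, and 8.37 and 8.28 in the combination. Control array B was the lowest of the 8, and the change was 0.28 ± 0.13 with TGF-β1 (adjusted p = 0.445) and 0.15 ± 0.13 in the combination (adjusted p = 0.518). The feature gives 1 value for the gene, and spliced and unspliced XBP1 were not separated here.

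ATF6 read 9.87 and 9.75 in control, 9.79 and 9.71 with calcitriol, 9.82 and 9.70 with TGF-β1, and 9.71 on both combination arrays. EIF2AK3 (PERK), the eIF2 kinase of the endoplasmic reticulum, read 7.62 and 7.59 in control, 7.67 and 7.69 with calcitriol, 7.64 and 7.50 with TGF-β1, and 7.50 and 7.54 in the combination. Both genes kept within a narrow range over the 8 arrays, with combination changes of -0.10 ± 0.10 and -0.09 ± 0.10. ERN1 read 7.88 and 7.84 in control, 7.64 and 7.76 with calcitriol, 7.68 and 7.60 with TGF-β1, and 7.44 and 7.78 in the combination. Its treated arrays were all below control, with a combination change of -0.25 ± 0.13 (adjusted p = 0.295). PPP1R15A (GADD34), which directs a phosphatase to eIF2 and reverses the translation block, gave -0.14 (adjusted p = 0.523).

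The chaperones held the largest rises and the largest fall of their group, and none passed. HSPA5 (BiP), the main chaperone of the endoplasmic reticulum, whose promoter is printed above, read 11.11 and 11.26 in control, 11.19 and 11.09 with calcitriol, 11.38 and 11.28 with TGF-β1, and 11.27 and 11.33 in the combination. The TGF-β1 and combination arrays were just above control, by 0.15 ± 0.11 (adjusted p = 0.626) and 0.11 ± 0.11 (adjusted p = 0.542). The 95% interval of the combination change, -0.13 to 0.36, bounds it.

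MANF, a secreted protein of the stressed endoplasmic reticulum that binds BiP, read 8.03 and 8.26 in control, 8.18 and 7.99 with calcitriol, 8.30 and 8.29 with TGF-β1, and 8.45 and 8.51 in the combination. Its combination arrays were the highest of the 8, at 0.34 ± 0.12 above control (adjusted p = 0.144). DNAJB11, a BiP co-chaperone, read 9.38 and 9.28 in control, 9.34 and 9.37 with calcitriol, 9.51 and 9.40 with TGF-β1, and 9.57 and 9.65 in the combination. Its change was 0.28 ± 0.10 (adjusted p = 0.152), but a second DNAJB11 feature, above background on all arrays, gave -0.03. DNAJC3, a co-chaperone also known as p58IPK, read 8.54 and 8.45 in control, 8.31 and 8.38 with calcitriol, 8.75 and 8.40 with TGF-β1, and 8.82 and 8.71 in the combination (change 0.27 ± 0.14, adjusted p = 0.270). For DNAJC3, as for the other two, both combination arrays lay above both controls.

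CRELD2, a stress-induced protein with isomerase activity, read 6.97 and 6.85 in control, 6.84 and 6.61 with calcitriol, 6.97 and 6.94 with TGF-β1, and 6.59 and 6.73 in the combination. Calcitriol and combination arrays were low and TGF-β1 arrays were like control, and the combination change was -0.25 ± 0.12 (adjusted p = 0.247). HYOU1, a large Hsp70-type chaperone, gave -0.18 (adjusted p = 0.320). It has 23 features, and over the 21 above background on all arrays the combination change ran from -0.31 to 0.10 and was below 0 for 18. CALR and CANX, the lectin chaperones of glycoprotein folding, gave 0.02 (adjusted p = 0.916) and -0.11 (adjusted p = 0.527). HSP90B1 (GRP94), DNAJB9 and SDF2L1 gave between 0.04 and 0.12 in the combination. With TGF-β1 HSP90B1, read from a feature without a gene ID, gave -0.26 (adjusted p = 0.377), both arrays lying below both controls.

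The disulfide isomerases and degradation genes were also near control. PDIA4 read 9.42 and 9.37 in control, 9.19 and 9.26 with calcitriol, 9.24 and 9.44 with TGF-β1, and 9.17 and 9.22 in the combination. Its calcitriol and combination arrays were below control, with a combination change of -0.20 ± 0.11 (adjusted p = 0.311). PDIA6 and PDIA3 gave -0.11 and 0.05. HERPUD1, a part of the degradation machinery of the endoplasmic reticulum membrane, read 8.41 and 8.47 in control, 8.48 and 8.33 with calcitriol, 8.77 and 8.51 with TGF-β1, and 8.53 and 8.70 in the combination. The TGF-β1 and combination arrays were above control, by 0.20 ± 0.13 (adjusted p = 0.578) and 0.17 ± 0.13 (adjusted p = 0.436). SEL1L, an adaptor of the same machinery, gave -0.01 (adjusted p = 0.983).

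**Figure D4:**
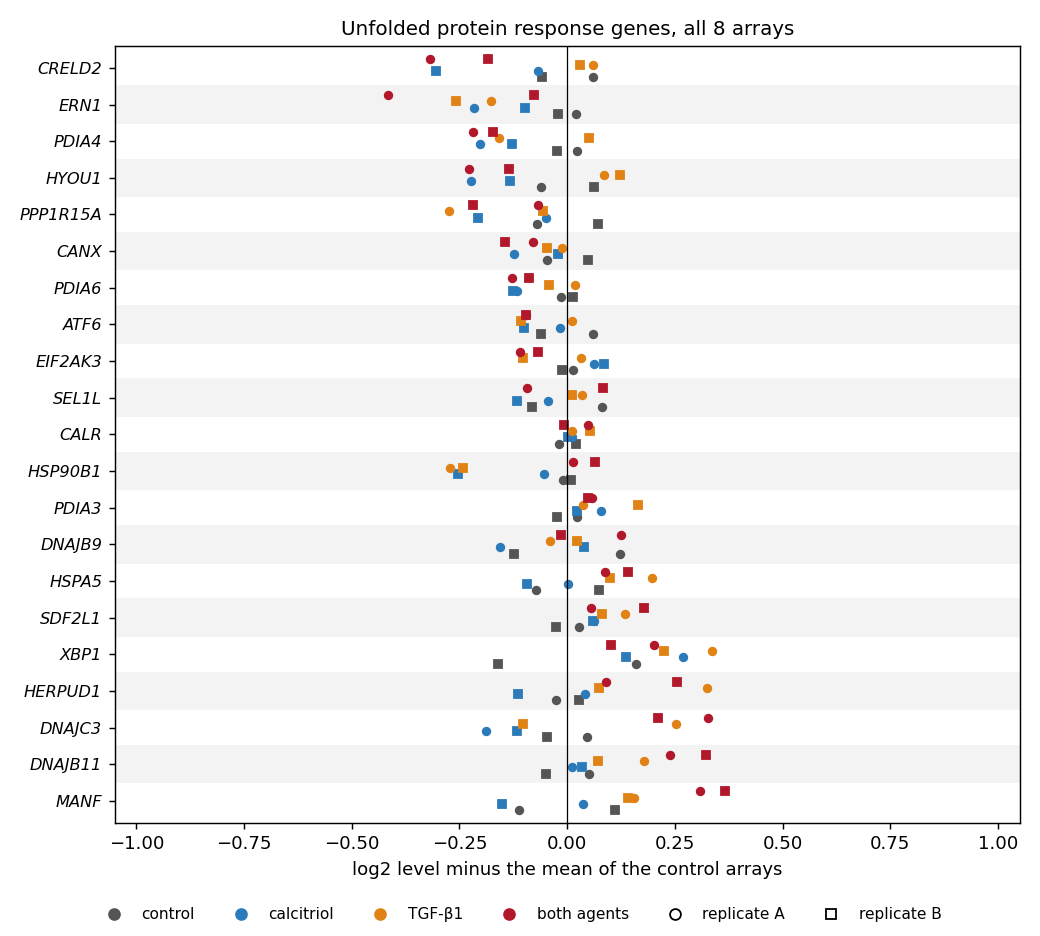
Log2 level minus the mean of the control arrays (horizontal axis, same scale as the plot of the ATF4 group) for the 21 endoplasmic reticulum group genes (rows, ordered by the combination change) on all 8 arrays. Colour is the group, circles replicate A and squares replicate B. The point furthest from 0 is ERN1 on combination array A, and the point furthest to the right is MANF on combination array B.

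With each agent alone, 0 of the 42 genes passed the test. Over all genes, 0% were called lower and 0.00838% higher with calcitriol, and 0.264% lower and 0.344% higher with TGF-β1, so few calls were made anywhere. At an unadjusted p under 0.05 there was 1 of 42 with calcitriol and 7 with TGF-β1. Over all 23854 genes tested these counts were 1752 and 3003. The ATF4 group median was -0.14 with either agent, and the endoplasmic reticulum median was -0.06 with calcitriol and 0.03 with TGF-β1, beside protein-coding medians of -0.05 and -0.06. Both calcitriol arrays lay below both controls for 10 ATF4 group and 7 endoplasmic reticulum genes and above for 4 and 3, against 23.2% and 13.5% of all genes (32.6% below among protein-coding genes above 8). With TGF-β1 these counts were 10 and 2 below and 3 and 8 above, against 26.1% and 17.1% of all genes (40.1% below among protein-coding genes above 8). These comparisons share the control arrays, so they are not independent of each other.

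Against calcitriol alone, the combination again changed 0 of the 42 genes, where 0.193% of all genes were called lower and 0.394% higher. PSAT1 gave -0.49 ± 0.11 (adjusted p = 0.133) and MTHFD2 -0.38 ± 0.10 (adjusted p = 0.188). MANF gave 0.40 ± 0.12 (adjusted p = 0.220) and DNAJC3 0.42 ± 0.14 (adjusted p = 0.240). Against TGF-β1 alone, 0 members were called, as were 0% of all genes in either direction. An unadjusted p under 0.05 was found for 7 members and for 2210 of all 23854 genes tested. SLC7A5 differed most of the transporters there, by -0.38 ± 0.12 (adjusted p = 0.526).

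The interaction called 0% of all genes and therefore 0 members. At an unadjusted p under 0.05 it had 2 members, DDIT3 and HSP90B1, and 1229 of all 23854 genes tested. For PSAT1 it was -0.09 ± 0.16 (95% interval -0.45 to 0.27) and for MTHFD2 -0.05 ± 0.14 (95% interval -0.39 to 0.28). The combination values of both genes thus lay near the sum of the single-agent changes, within intervals that also allow deviations of about the size of the single changes. The combination had the lowest mean of the 4 groups for 14 of 21 ATF4 group genes and 7 of 21 endoplasmic reticulum genes, against 37.0% of all genes, 45.4% of protein-coding genes and 53.8% of those with a mean level above 8.

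Other genes of these pathways were few among the calls. Of 14 tested further ATF4-linked genes, SLC7A11, the cystine importer xCT, fell. It read 9.05 and 8.98 in control, 8.69 and 8.72 with calcitriol, 8.25 and 8.23 with TGF-β1, and 8.10 and 7.91 in the combination, in the same order as PSAT1 and without overlap. Its change was -0.77 ± 0.11 with TGF-β1 (adjusted p = 0.0312) and -1.01 ± 0.11 in the combination (adjusted p = 0.00876), and it also differed between the combination and calcitriol, by -0.70 ± 0.11 (adjusted p = 0.0439). The call with TGF-β1 and that against calcitriol were lost when any 1 of the 8 arrays was left out, with adjusted p up to 0.214 and 0.240. The call of the combination against control was lost without control B, combination A or combination B, with an adjusted p of up to 0.0776. Of the 14 genes, 12 had a combination change below 0 and 2 above, beside 69.1% of protein-coding genes below 0. ATF3 was not called but lay higher on all treated arrays. It read 6.09 and 6.08 in control, 6.52 and 6.30 with calcitriol, 6.77 and 6.58 with TGF-β1, and 6.59 and 6.81 in the combination.

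Of 9 tested genes for the eIF2 kinases, eIF2 and its exchange factor, EIF2B3, a subunit of the exchange factor eIF2B, fell in the combination. It read 9.24 and 9.04 in control, 8.95 and 8.99 with calcitriol, 8.81 and 8.82 with TGF-β1, and 8.60 and 8.53 in the combination. The groups did not overlap. The change was -0.58 ± 0.11 (adjusted p = 0.0424), and leaving out any 1 of the 8 arrays put the adjusted p above the threshold, at up to 0.148. Of 11 tested aminoacyl-tRNA synthetases, many of them ATF4 targets, 0 changed and the combination median was -0.12, as over all protein-coding genes. Of 21 tested further genes of the endoplasmic reticulum, 0 changed and the median was -0.03.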

How the data were processed

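The deposited values are log2 expression levels, 1 per feature and array, on Clariom D arrays. RMA, oligo and limma are named without versions per the submitters' processing notes, log2 is taken as the usual RMA output, and the sources used here name neither the build nor the order of steps. Features were named from the platform's probe list, leaving 36176 of 138745 with 1 symbol. Features above 4.34 (the 50th percentile) in at least 2 arrays were kept, with the highest-mean feature per gene. Background was the 95th percentile of 612 negative control features on each array. All 8 arrays entered 1 linear model with a mean for each group (limma 3.58.1, lmFit and eBayes, R 4.3.3, version 1.17.8 of data.table), with 6 contrasts, 4 residual degrees of freedom and two-sided tests. The fit was first run on simulated data as a check of the code, which says nothing about changes as small as most seen here. Benjamini-Hochberg adjustment ran over 23854 genes, and genes under 0.05 are said to have changed. Values stand for 2 independent experiments per group, and this number limits the precision. Promoters came from RefSeq (GRCh38.p14) and figures from Python 3.11.15.

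The members and lists were chosen with earlier results of these data known. Values on every array are printed for members called in any contrast and for set factors, sensors and marker genes. They are also printed for the 3 largest rises and falls of each group in the combination. SHMT2, PSPH and ATF3 were added after their values were seen. HSP90B1 was read from a feature without a gene ID, and another feature naming it beside a miRNA was not used. Alternatives changed the filter, the feature rule, the gene set, the scaling, the variance prior, the arrays fitted and the replicate block.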

Additional observations from a re-analysis of the deposited data

How the results depend on the processing

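Of 1221 comparisons of a named gene's change with an alternative, 1159 kept their side of the threshold (29 of these changed sign without a call under either setting), 52 lost a call, 10 gained one and 0 called values reversed. The 2 members called in the combination against control became 0 with no filter on low values, 5 with the stricter filter, 1 after cyclic loess, 1 after quantile normalization, 0 with only the compared arrays, 11 with a trended, robust variance prior (9 lower, 2 higher, MANF and DNAJB11) and 0 to 0 when each array was left out. The trended prior called 3 members with TGF-β1 and 5 in the combination against calcitriol. The share of all genes called under each alternative is not given here, so these counts are not a result about the members. PSAT1 was called under 6 of 17 alternatives and MTHFD2 under 4. With the letters as a replicate block the count was 0 (PSAT1 adjusted p = 0.0572, MTHFD2 0.0659); the deviations of the A arrays from their group means correlated between groups with r of only -0.08 to 0.08, and nothing but the letter links them.

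Median changes moved as follows. Cyclic loess gave the ATF4 group -0.0766 with TGF-β1 and -0.20 in the combination, and the endoplasmic reticulum group -0.0204, 0.0715 and 0.11 with calcitriol, TGF-β1 and both. Quantile normalization gave -0.24 for the ATF4 group in the combination and -0.0262 and 0.0674 for the endoplasmic reticulum group with calcitriol and both. Leaving out 1 array gave the ATF4 group -0.15 to -0.0601 with calcitriol and -0.33 to -0.23 in the combination, and the endoplasmic reticulum group -0.11 to -0.0444 with calcitriol and -0.0647 to 0.0294 in the combination. With 2 arrays a group, small changes could be missed. The cause of these shifts was not tested.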
